A study of Homo sapiens with 5 samples.

Results

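The kinases described here sit at the lower end of the ERK pathway. They are the 4 ribosomal S6 kinases of the RSK group (RPS6KA1, RPS6KA2, RPS6KA3 and RPS6KA6), both MSK kinases (RPS6KA4 and RPS6KA5), both MNK kinases (MKNK1 and MKNK2) and ERK1 itself (MAPK3). They were chosen by gene name, and the family was taken up because the RPS6KA2 signal had already been seen to be higher after silencing of TIP-1. Each of the 9 genes matched 1 row of the array table by its gene symbol, out of 33297 rows and 18417 genes with a row of their own, and no row with several symbols carried a member.

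RNA came from D54, an established human glioma cell line. Control shRNA arrays were made from 2 independent clones, and TIP-1 shRNA arrays from 3 D54 cell samples that each carried a different shRNA, so every array is a single clone or shRNA. The labels give no other genetic change or agent. All cells were trypsinised, seeded in DMEM/F12 and grown overnight before RNA extraction, and no technical replicates were made. TIP-1, encoded by TAX1BP3, is a small protein that consists of a PDZ domain, a module that recognises the tails of partner proteins.

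RSK kinases carry a pair of kinase domains in 1 chain. ERK docks at the end of the chain and phosphorylates it, PDK1 then activates the domain near the start, and the active kinase acts on ribosomal, cytoskeletal and transcriptional proteins in growth-factor signalling. MSK kinases share this plan, lie in the nucleus, answer to both ERK and p38, and phosphorylate CREB and histone H3. MNK kinases also answer to ERK and p38 and phosphorylate the cap-binding protein eIF4E, and in gliomas this pathway is commonly active through growth factor receptors.

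The values are log2 signals, where 1 unit is a 2-fold change. Differences are taken only within a row, since each row has its own probes. A row's place against the array medians and quartiles is given as a rough mark of brightness, not as a ranking of transcripts. Array medians lay between 7.88 and 7.98, lower quartiles between 6.35 and 6.45 and upper quartiles between 9.77 and 9.83. The row used for TAX1BP3 also carries the symbol P2RX5-TAX1BP3. TAX1BP3 fell by 2.42 on the log2 scale with TIP-1 shRNA (limma adjusted p = 0.011, 2 controls and 3 shRNAs), from 12.05 and 12.10 to 9.81, 9.61 and 9.55, so the silencing is seen in each shRNA. Its adjusted p rose to 0.387 without control 2, 0.386 without control 1 and 0.129 without shRNA 2. Of the 9 glioma cell markers, VIM, CD44 and EGFR were above the upper quartile of every array, whereas NES (7.78 to 8.06), GFAP (7.86 to 8.14), OLIG2 (7.13 to 7.50), SOX2 (7.05 to 7.26), FABP7 (6.27 to 6.49) and S100B (6.23 to 6.31) were near or below the array medians. Of 16 measured markers of leukocytes, endothelium, epithelium, neurons, oligodendrocytes and fibroblasts, 2 were above the median of every array (RBFOX3 and COL1A1). SYT1 was above it on every array except shRNA 3 (8.47 and 8.51 in the controls, 8.67, 8.66 and 7.35 with the shRNAs). PTPRC was above it in control 1 and shRNA 1, and COL3A1 in control 2 and shRNA 1. The log2 signals of the 16 markers summed to 115.6 and 115.9 in the controls and to between 111.0 and 116.1 in the shRNA arrays. The largest departures from the control mean were in shRNA 3, at -1.15 for PTPRC, -1.14 for SYT1 and -0.87 for EPCAM. The PTPRC controls themselves read 8.65 and 7.32, and EPCAM was below both controls with every shRNA. No marker was past the threshold in either list.

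Because RPS6KA2 is the gene the family turns on, the bases before its starts are shown first. RefSeq (GRCh38.p14) lists 3 starts for RPS6KA2, all on the minus strand of chromosome 6, and the array row gives 1 value for the gene without telling them apart. The 250 bases before each start are printed 5′ to 3′, with the GC box GGGCGG, on either strand, in capitals.

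RPS6KA2 start a, chr6:166862526-166862775: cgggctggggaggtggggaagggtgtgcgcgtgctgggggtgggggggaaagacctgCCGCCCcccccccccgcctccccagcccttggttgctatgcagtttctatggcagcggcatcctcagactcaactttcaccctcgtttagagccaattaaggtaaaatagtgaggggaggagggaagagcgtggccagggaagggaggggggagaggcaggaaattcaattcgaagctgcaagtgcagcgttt
RPS6KA2 start b, chr6:166627252-166627501: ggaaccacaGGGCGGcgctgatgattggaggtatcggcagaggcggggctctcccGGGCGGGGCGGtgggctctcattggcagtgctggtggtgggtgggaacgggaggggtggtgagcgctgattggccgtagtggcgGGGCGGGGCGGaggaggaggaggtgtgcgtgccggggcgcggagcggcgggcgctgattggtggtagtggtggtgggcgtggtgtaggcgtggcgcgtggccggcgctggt
RPS6KA2 start c, chr6:166544691-166544940: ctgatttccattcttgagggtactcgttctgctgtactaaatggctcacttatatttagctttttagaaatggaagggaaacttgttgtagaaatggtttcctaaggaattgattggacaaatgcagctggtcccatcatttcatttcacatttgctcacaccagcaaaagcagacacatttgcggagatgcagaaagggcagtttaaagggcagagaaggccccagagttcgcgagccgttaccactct

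The starts differ in base composition. GC content was 61.2% before start a, 72.4% before start b and 43.6% before start c, with 10, 26 and 5 CpG dinucleotides against a median of 11 over 35116 such windows. The GC box occurred 1, 5 and 0 times, with neighbouring copies before start b sharing a base, and 42.6% of all windows hold it. The core of the cAMP response element that CREB binds (TGACG, in 21.2% of windows), the AP-1 site (TGANTCA, in 6.57%) and the TATA box (TATAAA, in 10.7%) did not occur before any of the 3 starts on either strand. Over all 9 kinase genes, which have 14 windows in the table, 3 genes had at least 1 window with the CRE core (RPS6KA1, RPS6KA5 and RPS6KA6), 1 had the AP-1 site (RPS6KA4) and all 9 had the GC box. The percentages are per window and these counts are per gene, so a gene with several windows had more chances of a match. These are letter matches only.

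RPS6KA2, which encodes RSK3, gave log2 signals of 8.75 and 8.68 in control 1 and control 2 and of 10.81, 11.23 and 9.91 in shRNAs 1, 2 and 3. The controls nearly coincided, every shRNA array was above both of them, and shRNA 3 was the lowest of the shRNA arrays. The group means were 8.71 ± 0.05 (SD, n = 2) and 10.65 ± 0.67 (SD, n = 3), a difference of 1.94 log2 units or 3.83-fold. This difference is what brought the gene forward and is given as a description. It was the second of 33297 rows when differences were ordered from the highest, and its limma adjusted p over all rows was 0.71, so it did not pass the threshold of 0.05. The distance from the highest control to the lowest shRNA array was 1.17 log2 units, against 0.07 between the controls. With 1 array left out the difference lay between 1.65 (without shRNA 2) and 2.31 (without shRNA 3). In whole-cell RNA, a signal from more cells with the transcript and one from more transcript per cell cannot be told apart.

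**Figure D1:**
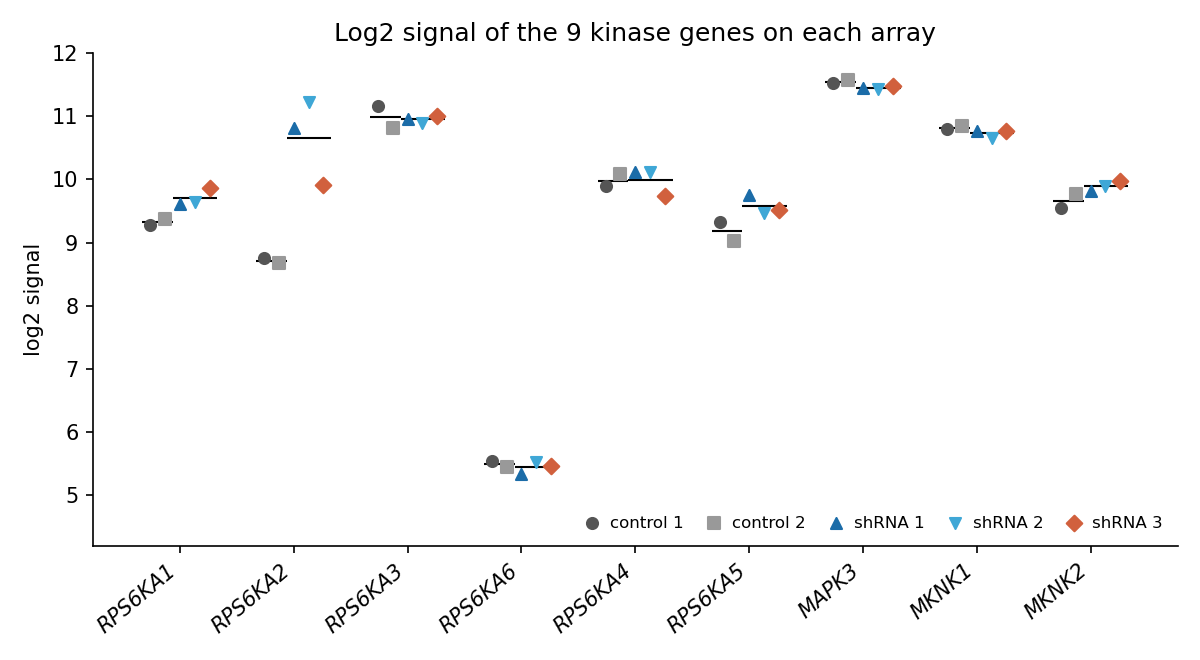
Log2 signal (vertical axis) of each of the 9 kinase genes on the 2 control and 3 TIP-1 shRNA arrays (points), with the mean of each group as a horizontal line; heights are not comparable between genes. For RPS6KA2 the controls sit at 8.75 and 8.68 and the shRNA arrays between 9.91 and 11.23. Among the other genes the points spread most for RPS6KA5 (9.03 to 9.75) and RPS6KA1 (9.28 to 9.87).

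Among the other RSK genes, none passed the test. RPS6KA1, which encodes RSK1, a kinase found in most tissues, read 9.28 and 9.37 in the controls, against 9.61, 9.64 and 9.87 with shRNAs 1, 2 and 3. All shRNA arrays were above both controls, by at least 0.24, and here shRNA 3 was the highest. The difference was 0.38 (95% interval 0.12 to 0.65 for this row alone, limma adjusted p = 0.71 over all rows).

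RPS6KA3 encodes RSK2, the kinase lost in Coffin-Lowry syndrome. It read 11.16 and 10.82 in the controls, against 10.96, 10.89 and 11.00 with the shRNAs, so all shRNA values lay between the controls. The difference was -0.04 (95% interval -0.34 to 0.25, limma adjusted p = 0.93), and it changed sign without control 1, to 0.13. RPS6KA6 encodes RSK4, which is unusual in the group for its activity without growth factor. It read 5.55 and 5.45 in the controls, against 5.34, 5.53 and 5.46 with the shRNAs, below the lower quartile of every array. No detection call was used here, so whether the RSK4 transcript was present cannot be said, and its difference was -0.06 (95% interval -0.29 to 0.17, limma adjusted p = 0.89), or -0.0065 without shRNA 1 and -0.0082 without control 1.

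RPS6KA2 was then set against its 3 RSK relatives within each shRNA array. Its difference from the controls exceeded the mean difference of RPS6KA1, RPS6KA3 and RPS6KA6 by 2.07 in shRNA 1, 2.43 in shRNA 2 and 1.03 in shRNA 3, or 1.84 ± 0.73 log2 units (SD, n = 3). The gap was positive with all 3 shRNAs and smallest with shRNA 3. RPS6KA6, below the lower quartile of every array, enters the mean of the relatives, and the gap without it was not computed. The controls enter all of these values, and RPS6KA2 was chosen for its difference, so no test was applied.

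The MSK genes read as follows. RPS6KA5, encoding MSK1, had log2 signals of 9.33 and 9.03 in the controls and of 9.75, 9.47 and 9.51 with the shRNAs. Every shRNA array was above both controls, but the step between the groups, 0.13, was smaller than the 0.31 between the controls. The difference of 0.40 (95% interval 0.07 to 0.73 for this row alone) did not pass over all rows (limma adjusted p = 0.71), and it was 0.24 without control 2. RPS6KA4, encoding MSK2, read 9.89 and 10.08 in the controls, against 10.11, 10.11 and 9.74 with the shRNAs. The groups overlapped, with shRNA 3 the lowest of the 5 arrays, and the difference was 0.01 (95% interval -0.34 to 0.36, limma adjusted p = 0.99), with a sign that depended on the arrays and scaling used.

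MAPK3, the ERK1 kinase that activates the others, read 11.52 and 11.57 in the controls, against 11.44, 11.43 and 11.47 with the shRNAs. The shRNA arrays were all below both controls by a narrow margin of 0.05, and the difference was -0.10 (95% interval -0.29 to 0.09, limma adjusted p = 0.77).

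MKNK1, encoding the eIF4E kinase MNK1, read 10.80 and 10.84 in the controls, against 10.77, 10.65 and 10.77 with the shRNAs. Its difference was -0.09 (95% interval -0.30 to 0.12, limma adjusted p = 0.79) and -0.05 without shRNA 2. MKNK2, encoding MNK2, a form with high basal activity, read 9.54 and 9.77 in the controls, against 9.81, 9.90 and 9.97 with the shRNAs. Its difference was 0.24 (95% interval -0.02 to 0.50, limma adjusted p = 0.71), but 0.12 without control 1. Both MNK genes had separate groups, MKNK1 with the shRNA arrays below and MKNK2 with them above, and both margins, 0.03 and 0.04, were smaller than the distance between the controls.

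**Figure D2:**
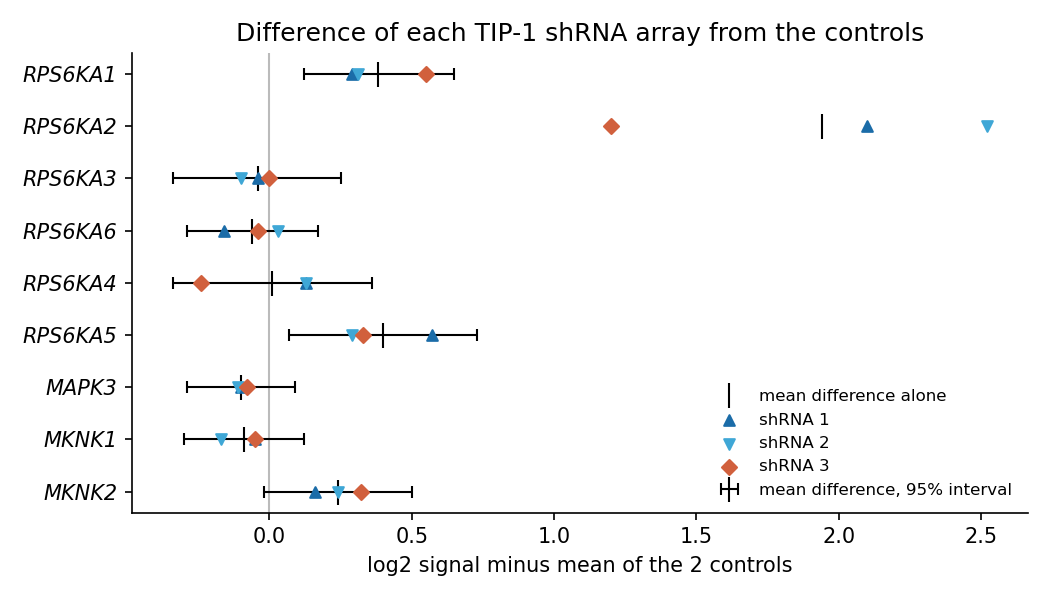
Log2 signal of each TIP-1 shRNA array minus the mean of the 2 controls (horizontal axis) for each kinase gene, with the mean difference as a tick and, except for RPS6KA2, limma's 95% interval of that row. RPS6KA2 lies at 1.20 to 2.52, and the mean differences of the other 8 genes lie between -0.10 and 0.40.

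Taking the family as a whole, 0 of the 8 kinase genes other than RPS6KA2 passed the limma test, and 1 row of all 33297 (0.003%), that of TAX1BP3, did. At an unadjusted p under 0.05 there were 2 of 8, RPS6KA1 and RPS6KA5, both higher with TIP-1 shRNA, where 3% of all rows were higher at that level, 3.95% lower and 6.95% either. On the deposited scale the 8 genes were evenly divided by sign, with a median difference of -0.02 against -0.01 over all rows. This split depended on the scaling. RPS6KA3 and RPS6KA6 turned positive with median centring (0.017 and 0.0043), and RPS6KA4 turned negative with quantile normalization (-0.021). None of the 8 differed by 1 log2 unit or more, as 0.165% of all rows did and 0.0901% did in the higher direction. With all arrays as deposited the fit called neither RPS6KA2 nor any relative; RPS6KA2 was called in 1 alternative, a fit with the replicate number as a block (difference 2.31, limma adjusted p = 0.023), which leaves shRNA 3 out of the difference. The intervals bound the relatives: the highest upper limit among the 8 was 0.73, for RPS6KA5.

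Counting only the order of the arrays, 6 of the 9 genes had groups that did not overlap, 4 with the shRNA arrays above (RPS6KA1, RPS6KA2, RPS6KA5 and MKNK2) and 2 with them below (MAPK3 and MKNK1). Over all rows 26.1% had separate groups, 11.6% above and 14.5% below, and in rows brighter than the median row 14.3% were above and 11.5% below. Since the family was chosen with this contrast in view, nothing is read from its count. After centring each array on its median the shRNA arrays of MAPK3 and MKNK1 no longer lay below both controls, which left 4 separate genes, all with the shRNA arrays above, where 28.4% of all rows had separate groups on that scale.

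The chromosomal surroundings of RPS6KA2 were examined through the 5 measured genes on each side in the order of the gene table. None of these 10 genes passed the test, and 1 had an unadjusted p under 0.05, as 6.95% of all rows did. Their differences lay between -0.21 and 0.31. MPC1, which encodes a subunit of the mitochondrial pyruvate carrier and is the nearest measured gene on one side, read 10.14 and 9.93 in the controls, against 10.62, 10.81 and 9.62 with shRNAs 1, 2 and 3. shRNAs 1 and 2 were thus above and shRNA 3 below both controls, with a difference of 0.31 (95% interval -0.53 to 1.16, limma adjusted p = 0.82) that was 0.68 without shRNA 3 and 0.08 without shRNA 2. SFT2D1, a membrane traffic gene beyond MPC1, read 9.90 and 9.72 in the controls, against 10.07, 10.12 and 10.09 with the shRNAs. It was the one neighbour with all shRNA arrays above both controls (difference 0.28, 95% interval 0.06 to 0.50, limma adjusted p = 0.71).

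On the other side, RNASET2, which encodes a lysosomal ribonuclease, read 8.90 and 8.75 against 9.10, 9.10 and 8.59, and again shRNA 3 was the lowest. CEP43, a centrosome gene, gave 8.97 and 9.06 against 9.13, 9.20 and 8.90. The differences of the remaining neighbours were -0.10 for PRR18, -0.07 for the notochord factor TBXT, -0.04 for LINC00602, -0.03 for the chemokine receptor CCR6, -0.21 for the receptor GPR31 and -0.11 for UNC93A. PRR18 and GPR31 had all shRNA arrays below both controls, which makes 3 of 10 neighbours with separate groups beside 26.1% of all rows. No row was annotated to the antisense or intronic transcripts named after RPS6KA2.

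**Figure D3:**
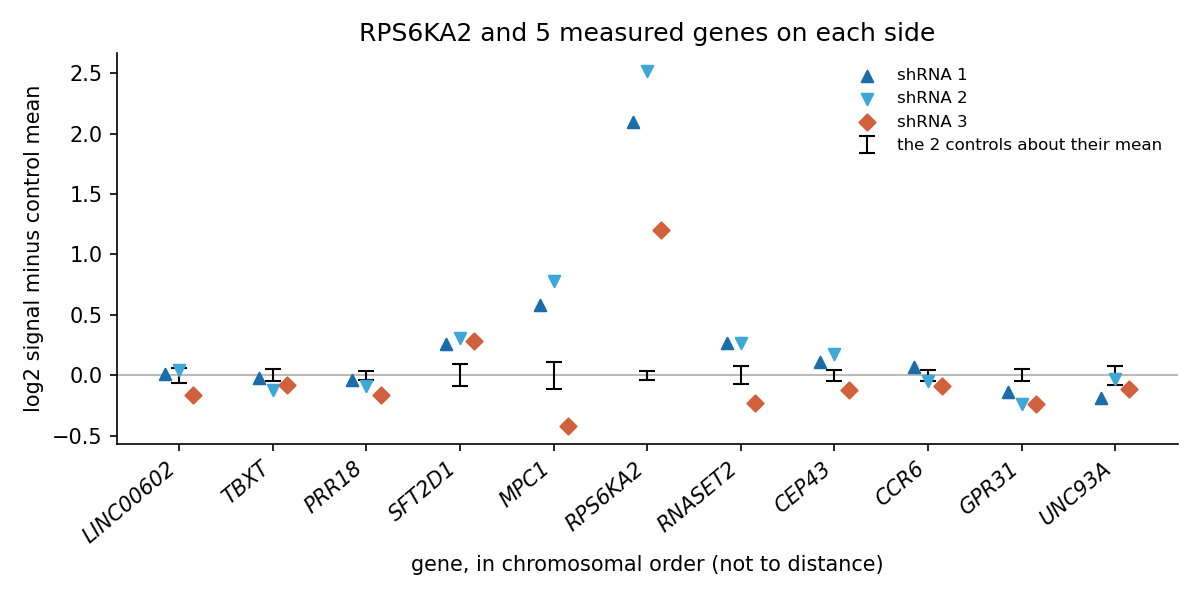
Log2 signal of each TIP-1 shRNA array minus the control mean (vertical axis) for RPS6KA2 and 5 measured genes on each side in chromosomal order; the bar spans the 2 controls. RPS6KA2 stands at 1.20 to 2.52, and the neighbours' points lie between -0.42 and 0.78, the extremes both belonging to MPC1.

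The rows most like RPS6KA2 in their course over the 5 arrays were found by centring each row on its own mean and taking the root mean square distance, among 19459 other rows with 1 symbol. The 5 nearest were MEIS1 (0.41 log2 units), ITGA11 (0.44), CDH11 (0.49), LRATD2 (0.49) and MXRA5 (0.53), against a median distance of 1.05. This measure uses the same arrays that brought RPS6KA2 forward, so the list is a description and is not evidence of a link between the genes. MEIS1, a homeobox transcription factor, read 7.32 and 7.27 in the controls, against 8.79, 8.74 and 7.90 with shRNAs 1, 2 and 3. ITGA11, a collagen-binding integrin chain, read 7.96 and 8.01 against 9.55, 9.49 and 8.24. In both, as in RPS6KA2, the shRNA 3 array was the lowest of the shRNA arrays.

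MXRA5, a matrix-remodelling protein, read 8.08 and 8.56 in the controls, against 9.40, 9.67 and 8.81 with the shRNAs, again with shRNA 3 the lowest. CDH11, a cadherin, read 8.67 and 7.57 against 9.68, 9.80 and 9.42, so its controls were further apart than those of RPS6KA2. LRATD2 read 8.04 and 7.90 against 9.34, 9.61 and 9.62, without the drop in shRNA 3. None of these 5 rows passed over all rows (limma adjusted p = 0.12 for LRATD2 and 0.71 for the rest). The other 8 kinases of the family lay at distances of 0.87 (RPS6KA5) to 1.10 (MKNK1). A row with the same value on every array would lie at 1.04, so these distances mainly reflect the size of the RPS6KA2 difference.

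**Figure D4:**
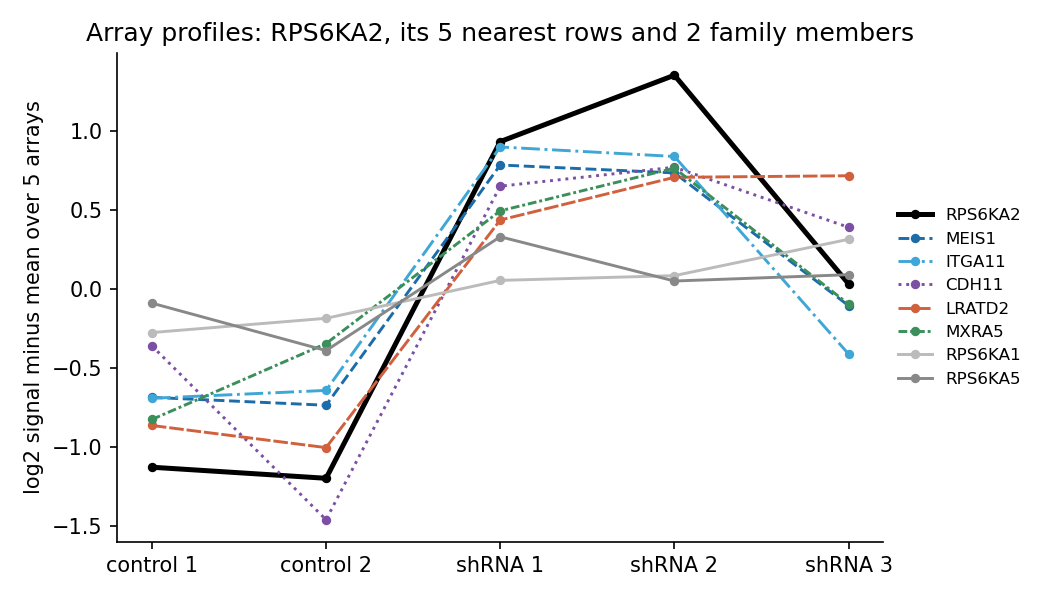
Log2 signal minus the row's own mean over the 5 arrays (vertical axis) for RPS6KA2, the 5 rows nearest to it and the family members RPS6KA1 and RPS6KA5; lines only join the points of a gene. RPS6KA2, MEIS1, ITGA11 and MXRA5 are highest in shRNAs 1 and 2 and nearer their mean in shRNA 3, whereas RPS6KA1 is highest in shRNA 3.

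Other genes of the pathway were followed in 6 lists with 86 measured genes, of 97 listed, and the rest were not analysed here. No gene of these lists passed the limma test over all rows. Before adjustment, 7 of the 86 genes were higher and 0 lower at a p under 0.05, where 3% and 3.95% of all rows were. Groups did not overlap in 24 genes with the shRNA arrays above and 5 with them below. Over all rows 11.6% were above and 14.5% below, and in rows brighter than the median row 14.3% and 11.5%; the counts of each list are to be read beside these shares, and no test was made of them.

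Upstream, 14 genes of the ERK cascade from Ras to MEK had a median difference of 0.05, within a range of -0.20 to 0.23. LAMTOR3, a scaffold that holds MEK and ERK1 on late endosomes, averaged 8.96 ± 0.05 in the controls (SD, n = 2) and read 9.16, 9.19 and 9.24 with the shRNAs (difference 0.23, limma adjusted p = 0.71). KSR2, a scaffold of Raf and MEK, differed by -0.20, and the GTPase HRAS by 0.16 (0.10 without control 1). The groups of all 3 were separate. In the list, 6 genes had the shRNA arrays above both controls and 1 had them below, where 11.6% and 14.5% of all rows did.

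The p38 arm, which also feeds the MSK and MNK kinases, had a median of 0.04 over 8 genes and a range of -0.09 to 0.14. MAPKAPK3, a p38-activated kinase, and MAP2K3, a kinase that activates p38, both differed by 0.14 (0.06 without control 1 and 0.05 without shRNA 3, in that order), and MAPK12, which encodes p38 gamma, by 0.09 (0.06 without control 1). Of this list 2 genes had the shRNA arrays above both controls and 0 had them below, again beside 11.6% and 14.5% of all rows.

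The AGC relatives share with RSK and MSK the type of kinase domain near the start of the chain, and include PDPK1, the gene of the RSK activator PDK1. Their median was 0.13 over 11 genes, with 7 genes above both controls and 1 below, beside the 11.6% and 14.5% of all rows. SGK1, a kinase induced by serum and glucocorticoids, read 12.13 and 11.86 in the controls, against 12.49, 12.47 and 12.41 with the shRNAs. All shRNA arrays were above both controls (difference 0.46, limma adjusted p = 0.71). RPS6KB1, which encodes the S6 kinase of the mTOR pathway, differed by 0.19 (0.09 without control 2) and RPS6KL1, a kinase-like relative, by -0.19. The upper quartile of the arrays was 9.77 in both controls and 9.79, 9.80 and 9.83 in the shRNA arrays, so brighter rows in general read slightly higher with TIP-1 shRNA. The part this has in small positive differences was not tested.

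Downstream, 26 substrates of RSK, MSK and MNK kinases had a median of 0.02 and a range of -0.16 to 0.46. Beside the 26.1% of all rows with separate groups, 24 of the 26 had overlapping groups. The exceptions were CDKN1B, the cell cycle inhibitor p27, which read 9.24 and 9.21 in the controls, against 9.46, 9.38 and 9.66 with the shRNAs, and the receptor EPHA2, at 11.15 and 10.88 against 11.26, 11.30 and 11.23. MITF, a transcription factor, differed by 0.46 but read 9.17 and 9.75 in the controls, with shRNA 2 between them at 9.70. Its difference was 0.17 without control 1, and that of EPHA2, 0.25 with all arrays, was 0.12 without control 2. None passed (limma adjusted p = 0.71 for each of these 3).

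Transcripts that ERK signalling commonly induces had a median of 0.13 over 17 genes, with 6 above both controls and 2 below, beside 11.6% and 14.5% of all rows. SPRY2, a feedback inhibitor of receptor signalling, read 7.78 and 7.60 in the controls, against 8.71, 8.81 and 8.33 with the shRNAs, a difference of 0.92 (limma adjusted p = 0.71). The ERK phosphatase DUSP4 read 8.20 and 8.61 against 8.69, 8.95 and 8.83, and PHLDA1 10.46 and 10.44 against 10.76, 10.63 and 10.87. All 3 had separate groups and none passed. DUSP4 differed by 0.42 with all arrays and by 0.22 without control 1.

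For 10 genes that MSK and CREB commonly induce, the median was -0.03 and 8 had overlapping groups. Of the list, 1 gene had the shRNA arrays above both controls and 1 below, beside 11.6% and 14.5% of all rows. JUNB, an AP-1 subunit, read 9.96 and 10.04 in the controls, against 10.18, 10.33 and 10.36 with the shRNAs (difference 0.29, limma adjusted p = 0.71). ATF3, a stress-induced factor, differed by -0.13 (-0.05 without shRNA 2) and the immediate early gene IER2 by -0.08 (0.04 without control 2).

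**Figure D5:**
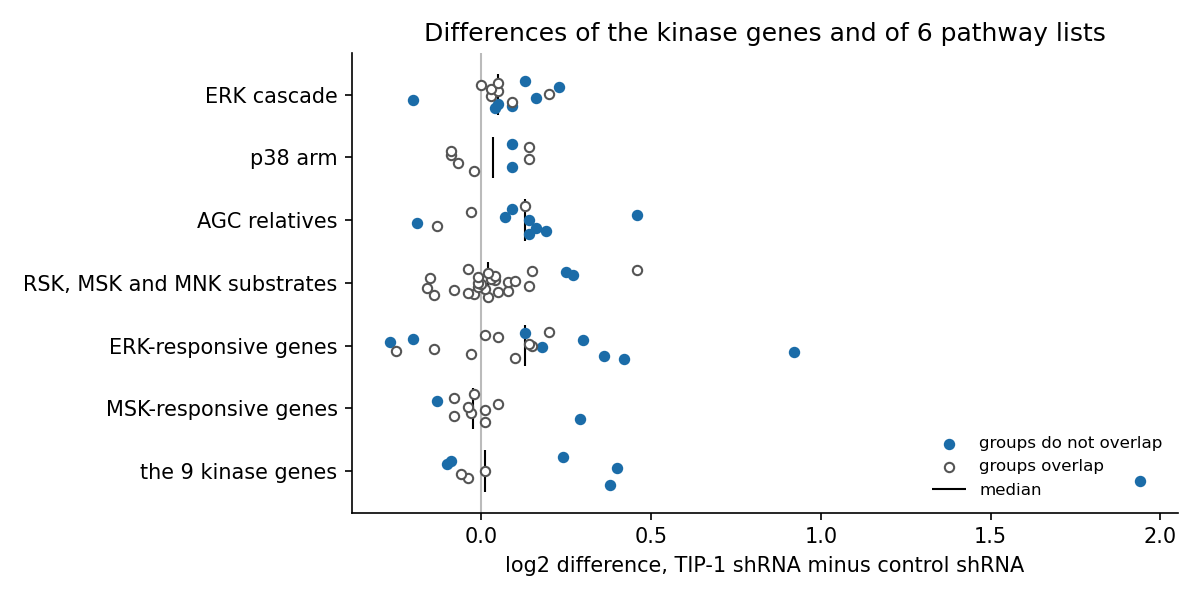
Log2 difference, TIP-1 shRNA minus control shRNA (horizontal axis), of each gene of the 6 pathway lists and of the 9 kinase genes; filled points have all shRNA arrays on one side of both controls, and the vertical line is the median. Medians lie between -0.03 and 0.13, and the point at 1.94 is RPS6KA2.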

How the data were processed

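The deposited values are log2 signals from Affymetrix whole-transcript arrays, 1 per sample, which the authors made with the Affymetrix Exon Array Computational Tool, per the labels of the series. Not given in the sources used here were its version, normalization and genome build. The identifiers of the rows fitted the gene-level array's annotation, so each value was read as 1 per transcript cluster. Detection calls were not used here. The values were used as deposited.

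TIP-1 shRNA minus control shRNA was fitted to all 33297 rows with limma 3.58.1 in R 4.3.3 (lmFit, eBayes, two-sided, Benjamini-Hochberg over all rows, threshold 0.05, 95% intervals). No source says that the samples were separate cultures beyond clone and shRNA, so p-values measure the spread between these arrays, whose number limits the precision. An exact permutation test of 2 against 3 arrays cannot go below 0.1, so none was used. On 10 simulated sets the fit recovered 2% of rows changed by 0.5 log2 units, 68.4% by 1 and 96.4% by 2. False calls numbered 6.5 per set. Each set held 200 changed rows, with changes of up to 3 units and row spreads drawn from the fitted prior. In the data 1 row passed, which makes the adjustment stricter, so these rates do not carry over to the rows reported here.

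The members and lists were chosen with earlier results of these data known. Genes named were TAX1BP3, the 9 members, the 3 smallest unadjusted p per list, 5 measured neighbours per side and the 5 nearest rows. For list genes the brightest row with 1 symbol was used. Protein ends were not analysed here. Alternatives were quantile normalization, median centring, bright rows only, a trended robust fit, array weights, the replicate number as a block, and each array left out.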

Additional observations from a re-analysis of the deposited data

How the results depend on the processing

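The RPS6KA2 difference stayed positive in every alternative run, from 1.65 to 2.31 with 1 array left out (limma adjusted p = 0.078 without shRNA 3). RPS6KA2 was chosen for this difference and every shRNA array was above both controls. Leaving out an array could thus not change the sign, which is no check of the result. The difference passed only with the replicate block (2.31, limma adjusted p = 0.023). That fit leaves shRNA 3, which shares no number with a control, out of the difference. Across rows, deviations of the control and the shRNA array with the same number correlated at 0.049 and -0.053. With 2 controls the deviations of one mirror those of the other, so these values are not separate checks and cannot decide on pairing. No pairing was assumed. The excess of RPS6KA2 over the other RSK genes lay between 1.55 and 2.25. Each gene had 1 row, so averaging rows gave no other value. No other member, list gene or neighbour passed in any alternative. TAX1BP3 ranged from -2.50 to -2.37 with 1 array left out. Rows past the threshold numbered 1, but 2 with array weights, 15 with the replicate block and 0 to 6 with 1 array left out. Where 1 control remained, its spread is assumed equal to that of the shRNA arrays. Of 443 values of the other named genes, 419 kept direction and side of the threshold, 4 became calls (MEIS1 and ITGA11, with the block and without shRNA 3, a setting in which LRATD2, MXRA5 and CDH11 were not called) and 20 changed sign, to sizes of at most 0.13. RPS6KA3 became 0.017 and RPS6KA6 0.0043 with median centring, and RPS6KA4 -0.021 with quantile normalization. With quantile normalization, median centring and the replicate block, CCR6 became 0.030, 0.036 and 0.0068 and LINC00602 0.034, 0.024 and 0.024 (0.011 with array weights). With 1 array left out, ranges were -0.22 to 0.13 for RPS6KA3, -0.088 to 0.13 for RPS6KA4, -0.21 to 0.037 for IER2, -0.096 to 0.024 for LINC00602, -0.0021 to 0.15 for CEP43 and -0.072 to 0.021 for CCR6. The test of members with separate groups under other scalings was chosen after seeing the data.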

Other observations

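Among the transcripts that ERK commonly induces, several genes outside the naming rule, chosen after their values were seen, had shRNA 3 apart from shRNAs 1 and 2, in both directions. ETV1, an ETS transcription factor, read 8.85 and 8.55 in the controls, 9.31 and 9.78 with shRNAs 1 and 2, and 7.45 with shRNA 3. CCND1, which encodes cyclin D1, read 12.64 and 12.81 in the controls, 12.96 and 12.95 with shRNAs 1 and 2, and 12.28 with shRNA 3. SPRY4, a feedback inhibitor related to SPRY2, read 9.70 and 9.51 in the controls, 9.65 and 9.65 with shRNAs 1 and 2, and 8.77 with shRNA 3. ETV1 and CCND1 were thus above both controls with shRNAs 1 and 2 and below both with shRNA 3, and SPRY4 was below both with shRNA 3 alone. In the same list shRNA 3 stood apart in the other direction for IER3, with 11.87, 11.98 and 12.39 for shRNAs 1, 2 and 3 against 11.89 and 12.17 in the controls, and for the phosphatase DUSP5, with 9.50, 9.36 and 9.91 against 9.37 and 9.62. ETV5, another ETS factor, read 11.09, 11.14 and 11.47 against 11.47 and 11.54. Genes outside the pathway also had shRNA 3 apart, such as SYT1 (8.67, 8.66 and 7.35 with shRNAs 1, 2 and 3) and MPC1 (10.62, 10.81 and 9.62). The share of all rows with shRNA 3 apart was not counted, so nothing is read here about ERK-induced genes in particular. Each shRNA had 1 array, so differences between shRNAs carry no test.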
